A study of Homo sapiens with 2 samples.

Results

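Peaks of IGF2BP3 binding were examined inside long coding exons, defined as peaks whose whole interval lay in the coding part of 1 exon of at least 1000 nt. The exons were those of the canonical transcripts of protein-coding genes in GENCODE 44 on hg38, without genes whose symbol starts with ZNF and without genes of a single exon. Such peaks numbered 618 of 21142 in replicate 1 (2.92%) and 639 of 20799 in replicate 2 (3.07%), and they fell in 478 and 468 genes. A further 304 and 280 peaks touched a long coding exon without lying wholly inside it. The lists came from LACE-seq of OE-19, an established human cell line that was derived from adenocarcinoma at the esophagogastric junction. The labels give 2 replicates of a single group with no other treatment or genotype. LACE-seq fixes RNA to its bound protein by UV, pulls the protein down with an antibody, trims the RNA and amplifies cDNA ends linearly before sequencing. Input and IgG libraries were not analysed here, and the study calls the replicates biological, while the labels do not say whether they were separate cultures.

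IGF2BP3 belongs to a small family of RNA-binding proteins with RRM and KH domains that bind mRNAs in the cytoplasm and prolong their life, and it has been described both as a reader of N6-methyladenosine (m6A) and as a protein that prefers CA-rich RNA. Most internal exons of human genes are short. The rare long ones, some of which encode repeats and linkers of very large proteins, are known to carry much of the m6A of coding sequence. This is because exon junction complexes keep the methylation machinery from RNA near splice junctions.

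The labelled cell type was checked first. All 8 epithelial marker genes had peaks in both lists, among them ERBB2 with 9 and 8 peaks and the adhesion gene CDH1 with 7 and 7. Of 9 markers of immune, stromal, endothelial and liver cells, only CD68 (1 and 2 peaks) and COL1A1 (0 and 1) had any. Total reads of each library are not known from these files. Depth was taken from the pileup, the number of reads over the summit, worked back from each peak's fold enrichment and p-value, which succeeded for all 618 and 639 peaks. Its median inside long coding exons was 27 and 29 reads, and its minimum was 6 in both. Whether the peak caller extended reads before counting them is not known here, so a counted read need not itself cover the summit.

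The sequences at the strongest shared sites are given as examples, which need not stand for the other peaks. Peaks of both lists inside long coding exons that overlapped by at least 1 bp were paired, and pairs were ranked by the lower of their within-list percentiles of fold enrichment with 1 pair per gene. The windows below hold the hg38 reference from 50 nt before to 50 nt after the summit of replicate 1, read 5′ to 3′ on the strand of the gene, with each CACA in capitals, the CA-rich word examined further on.
TUBB4A, chr19:6495474-6495574, minus strand: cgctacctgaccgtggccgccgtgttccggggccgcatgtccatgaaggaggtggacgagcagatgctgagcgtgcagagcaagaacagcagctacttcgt
NPIPB4, chr16:21837364-21837464, minus strand: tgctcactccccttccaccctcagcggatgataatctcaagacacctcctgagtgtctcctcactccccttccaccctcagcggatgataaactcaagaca
NPIPB13, chr16:30224692-30224792, minus strand: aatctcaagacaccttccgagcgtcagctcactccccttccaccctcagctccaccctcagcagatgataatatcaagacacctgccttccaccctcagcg
FUT5, chr19:5866966-5867066, minus strand: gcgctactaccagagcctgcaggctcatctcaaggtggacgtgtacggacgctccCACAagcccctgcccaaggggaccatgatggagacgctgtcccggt
MFSD6, chr2:190436899-190436999, plus strand: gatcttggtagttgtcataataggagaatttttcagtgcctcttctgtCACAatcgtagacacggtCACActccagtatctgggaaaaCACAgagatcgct
ARHGEF35, chr7:144187497-144187597, minus strand: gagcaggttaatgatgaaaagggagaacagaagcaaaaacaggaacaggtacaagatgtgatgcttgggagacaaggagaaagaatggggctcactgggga
NFATC3, chr16:68191429-68191529, plus strand: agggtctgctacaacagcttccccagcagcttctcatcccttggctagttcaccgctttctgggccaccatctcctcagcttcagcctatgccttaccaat
AGAP9, chr10:47503026-47503126, minus strand: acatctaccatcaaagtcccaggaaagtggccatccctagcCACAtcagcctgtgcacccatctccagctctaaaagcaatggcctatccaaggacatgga
IQSEC1, chr3:12935641-12935741, minus strand: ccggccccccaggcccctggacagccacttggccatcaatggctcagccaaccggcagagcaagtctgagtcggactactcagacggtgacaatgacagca
These are 9 of the 10 strongest pairs. In TUBB4A and IQSEC1 the summit of replicate 2 lay 144 and 531 bp from that of replicate 1, outside the window. CACA was present in 3 of these 9 windows and the m6A core GGAC in 4. The window of MFSD6, a membrane protein of the major facilitator superfamily, held CACA 3 times. The windows of NPIPB4 and NPIPB13 each repeated a run of bases, and they shared part of it.

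Further windows came from genes with several peaks. They are the best MUC5B pairs by −log10 q-value, which lie in the threonine-rich and serine-rich part of this secreted gel-forming mucin, and the best pairs of the transcription factor ZFHX3 and of NUMA1, a mitotic spindle pole protein.
MUC5B, chr11:1242541-1242641, plus strand: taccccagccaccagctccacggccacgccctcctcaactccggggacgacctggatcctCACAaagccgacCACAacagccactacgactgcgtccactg
MUC5B, chr11:1248793-1248893, plus strand: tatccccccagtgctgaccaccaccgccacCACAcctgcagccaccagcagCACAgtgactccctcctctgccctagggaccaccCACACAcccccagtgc
ZFHX3, chr16:72787651-72787751, minus strand: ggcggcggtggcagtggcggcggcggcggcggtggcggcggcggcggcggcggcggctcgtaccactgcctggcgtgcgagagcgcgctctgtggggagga
NUMA1, chr11:72014585-72014685, minus strand: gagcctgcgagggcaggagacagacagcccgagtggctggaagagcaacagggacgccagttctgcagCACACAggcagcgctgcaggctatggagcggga
The downstream MUC5B window held CACA 4 times, whereas the ZFHX3 window held runs of ggc, with 82.2% of its bases G or C, and no CACA. Windows of IRS1, SRRM2, FAT1 and MKI67 were read too and are not printed. CACA was absent from those of IRS1, SRRM2 and FAT1 and occurred 2 times in that of MKI67.

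The next question was how far the replicates shared these sites. Of the peaks inside long coding exons, 422 of 618 in replicate 1 (68.3%, Wilson 95% interval 64.5 to 71.8) and 420 of 639 in replicate 2 (65.7%, interval 62.0 to 69.3) overlapped a peak of the other list by at least 1 bp. Over all peaks the shares were 60.1% and 61.2%. Intervals here and below cover counting error only. At the level of genes, 630 had a peak inside a long coding exon in either list and 316 of them (50.2%) in both, with 162 in replicate 1 alone and 152 in replicate 2 alone. The matching share over all genes with peaks is not given here, so the 50.2% cannot be called low or high.

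Peaks inside long coding exons were compared with peaks inside long 3′ UTR parts and with peaks over internal coding exons shorter than 300 nt. The first 2 classes hold peaks that lie wholly inside their stretch. Peaks over short exons needed only to touch one, without touching a long coding exon, and could run past its ends. The classes thus differ in how peaks were chosen as well as in exon length. In replicate 1, 52.7% of peaks in long 3′ UTR parts recurred (1595 of 3024), below the share inside long coding exons (Fisher's exact test, two-sided, Benjamini-Hochberg adjusted p = 3.47e-12). In replicate 2 the order was the opposite, with 72.1% in long 3′ UTR parts (1676 of 2324, Fisher's exact test, adjusted p = 0.00394). The order thus differed by the list counted from, and no difference from 3′ UTRs was called. Each list counts largely the same overlaps, but over 3024 and 2324 peaks in long 3′ UTR parts, so the 2 tests are not independent. Over short internal exons 52.1% and 57.1% of peaks recurred, below long coding exons in both lists (Fisher's exact test, adjusted p = 4.01e-14 and 5.26e-05). These 2 tests also count largely the same overlaps, once from each list.

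The order against short exons depended on what counted as sharing. Peaks inside long coding exons were wider, with medians of 422 and 413 bp against 309 and 310 bp over short exons. When at least 50% of each peak had to overlap, the shares were 47.6% and 47.4% inside long coding exons and 49.9% and 54.7% over short exons (Fisher's exact test, adjusted p = 0.324 and 0.00108). When summits had to lie within 50 bp of each other, they were 27.02% and 26.9% against 34.5% and 37.9%, lower inside long coding exons in both lists (Fisher's exact test, adjusted p = 0.00037 and 1.30e-07). The part of peak width in these shares was not tested.

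**Figure D1:**
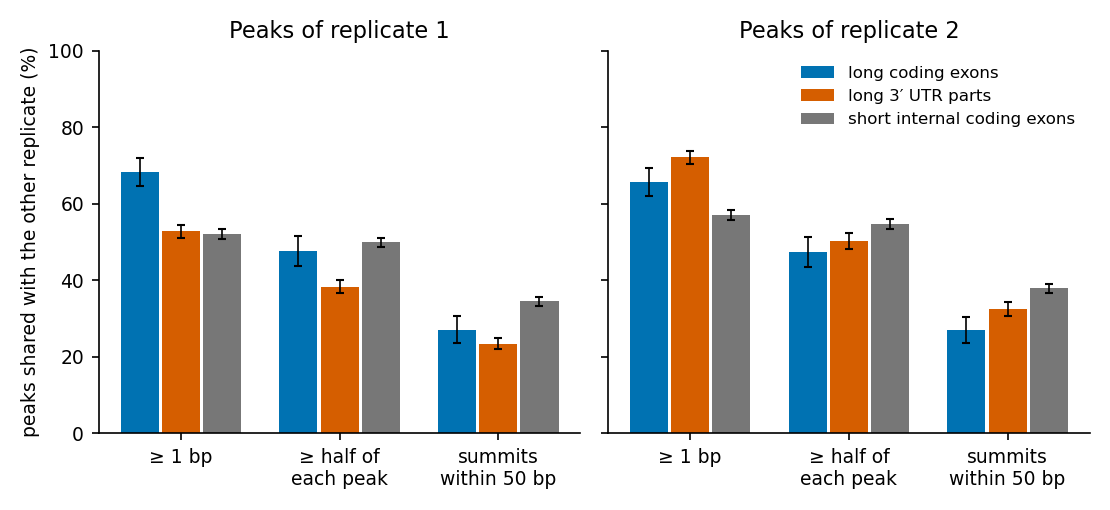
Share of peaks (%, vertical axis) that were shared with the other replicate under 3 rules of sharing, for the peaks of replicate 1 and of replicate 2, with Wilson 95% intervals as error bars. Long coding exons stand at 68.3% and 65.7% with 1 shared bp, above short internal exons, and at 27.02% and 26.9% with summits within 50 bp, below them, while 3′ UTR parts change their place between the replicates.

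Sharing rose with the number of reads at the summit. In replicate 1, 4 of 17 peaks with a pileup under 10 recurred (23.5%), against 52.3% from 10 to 19 reads, 67.7% from 20 to 39 and 87.2% from 40 upwards. In replicate 2 these shares were 37.9%, 56.9%, 67.9% and 73.8%. The lowest class held only 17 and 29 peaks. By fold enrichment, 84.6% and 89.5% of peaks in the top quartile of their whole list recurred, against 65.4% and 58.2% of those in the bottom quartile.

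Fold enrichment, the summit signal over the local background as the authors' peak caller gave it, was modest inside long coding exons. Its median was 5.68 in replicate 1 and 5.70 in replicate 2, against 6.89 and 7.13 over all peaks. In the top quartile of their list were 10.5% and 8.92% of peaks inside long coding exons, fewer than the 26.97% and 22.6% over short internal exons (Fisher's exact test, adjusted p = 7.09e-21 and 3.37e-17). This difference rested on fold enrichment as the measure. With −log10 q-value as the measure it averaged −1.31 percentage points and was not called (higher adjusted p of the replicates, Fisher's exact test, 0.551). Against 3′ UTR parts, with 7.24% and 8.003% in the top quartile, no difference was called (Fisher's exact test, adjusted p = 0.0139 and 0.486).

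Between the lists, 383 pairs of peaks inside long coding exons overlapped, in 295 genes. A peak can be in several pairs. Their summits lay a median of 90 bp apart, and in 150 pairs (39.2%) within 50 bp. The fold enrichments of a pair were within 1.5 times of each other in 320 pairs (83.6%), with a median ratio of replicate 2 to replicate 1 of 1.02. Across pairs, which are not independent since they share genes and libraries, Spearman's rho of fold enrichment was 0.69.

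**Figure D2:**
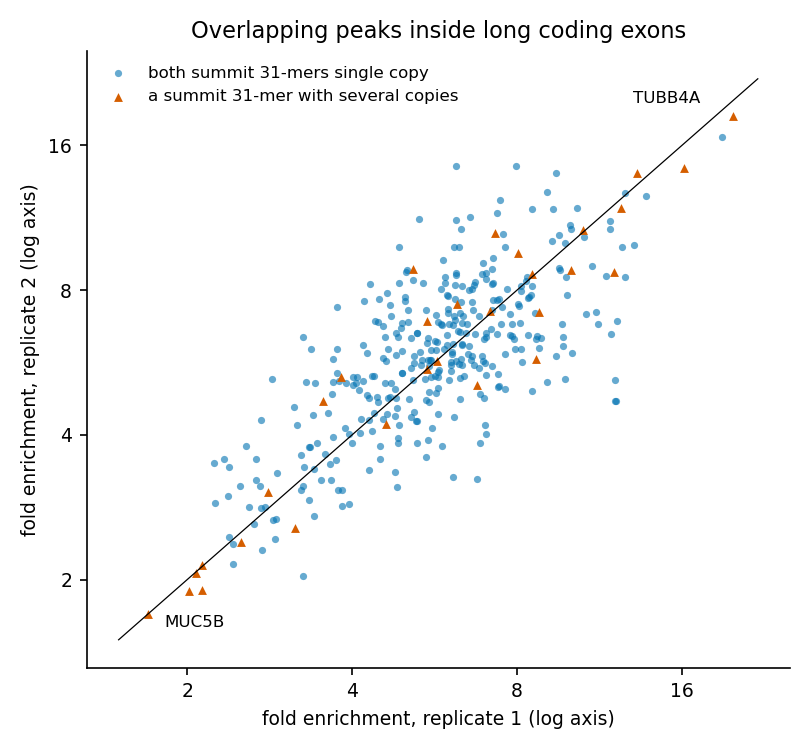
Fold enrichment in replicate 1 (horizontal, log axis) against replicate 2 (vertical, log axis) for the 383 overlapping pairs, with the line of equal values and 30 pairs marked in which the 31 bases around a summit occur several times in the genome. TUBB4A has the highest values, at 19.8 and 18.5, and the lowest pair, at 1.69 and 1.70, is in MUC5B.

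The strongest pair lay in TUBB4A, which encodes a beta-tubulin, at chr19:6495253-6495651 in exon 4 of 4, with fold enrichments of 19.8 and 18.5 and pileups of 56 and 50 reads. The 31 bases around its summits occurred 5 and 4 times in the genome, so its reads could also have come from other tubulin genes or copies. Next came the duplicated NPIPB4 (18.9 and 16.7) and NPIPB13 (16.1 and 14.3), whose summit bases occurred 82 and 96 times in NPIPB13 and once in NPIPB4. FUT5, a fucosyltransferase with close paralogs, had 13.3 and 13.99 with 3 copies, and ARHGEF35 had 12.4 and 11.9 with 3 copies. In all, 4 of the 10 strongest pairs had a summit with several copies, and these genes are uncertain. The count covers only the 31 bases at the summit. The NPIPB4 window shares a run of bases with that of NPIPB13, so NPIPB4 is uncertain too.

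The strongest pairs whose summits occurred once included genes of signalling and transcription. MFSD6 had fold enrichments of 13.8 and 12.6 with summits 23 bp apart. ONECUT2, a homeobox transcription factor, had 12.6 and 12.7 in exon 1 of 2. NFATC3, a calcium-regulated transcription factor, had 11.8 and 11.1 in exon 9 and a weaker pair of 5.91 and 8.50 in exon 2. IQSEC1, an exchange factor for ARF GTPases, had 11.8 and 10.7, but with summits 531 bp apart. The same IQSEC1 peak of replicate 2 overlapped a weaker replicate 1 peak of 6.32, with summits 18 bp apart. AGAP9, of a duplicated ARF GAP family, had 10.3 and 11.8. Summits with several copies were 13 of 65 and 8 of 57 peaks in the top fold quartile, against 15 of 301 and 21 of 349 in the bottom quartile.

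Several genes carried a series of peaks along a single exon. The gel-forming mucin MUC5B had 6 peaks in replicate 1 and 8 in replicate 2, in 7 pairs, the most of any gene. All lay in exon 31 of 49, at chr11:1240851-1251743, whose coding part is 10893 nt long, and they covered 4278 and 3976 nt of it. Its peaks had the highest pileups of all peaks inside long coding exons, 192 to 287 reads in replicate 1 and 204 to 289 in replicate 2. Their fold enrichments were among the lowest, 1.69 to 2.51 and 1.61 to 2.45. The pair with the most reads had the same summit in both lists, 7993 nt from the start of the exon. MUC5AC, another secreted mucin, which was named after its values were seen, had 4 peaks in each list and 3 pairs in its own exon 31, of 10371 nt, with fold enrichments of 2.30 to 3.14. The 31 bases at the MUC5B summits occurred 1 to 6 times.

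ZFHX3 had 7 peaks in replicate 1 and 6 in replicate 2, in 3 exons. A pair at chr16:72958519-72959030 in exon 2 of 10 had fold enrichments of 7.62 and 5.89 with summits 12 bp apart. The pair in its last exon had 5.80 and 6.80 and ranked above it by the lower percentile, and in exon 9, of 5460 nt, 1 peak of replicate 2 overlapped 2 of replicate 1. IRS1, the docking protein of the insulin receptor, whose exon 1 holds 3726 nt of coding sequence, had 3 peaks in each list that formed 3 pairs, with fold enrichments of 3.396 and 4.39, 2.65 and 2.61, and 2.56 and 3.78 from 5′ to 3′. The last of these pairs had summits 1 bp apart. The same number of pairs was found in the DNA damage mediator MDC1, the chromatin remodeller SRCAP, the endocytic adaptor STON2, the cadherin FAT1, the histone methyltransferase KMT2C, ZHX3, the keratin linker EPPK1 and the acetyltransferase KAT6A, and in KMT2D, SRRM2 and USF3, the last of which was named after its values were seen.

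**Figure D3:**
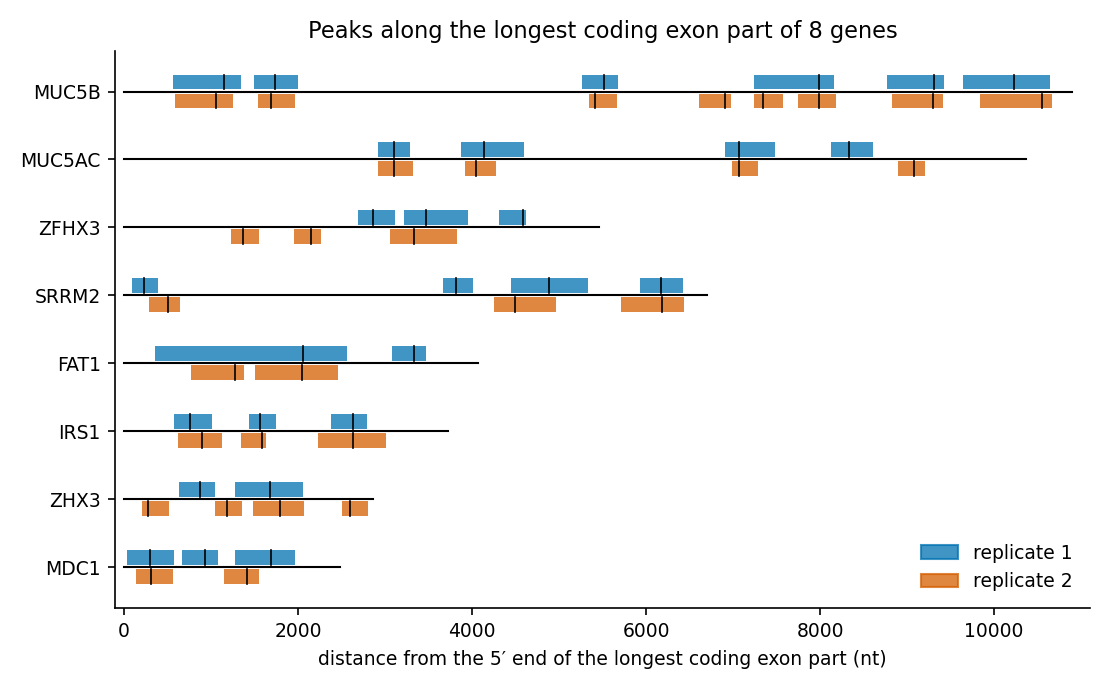
Peaks of replicate 1 (above each line) and replicate 2 (below) along the longest coding exon part of 8 genes picked from those with several peaks, to scale in nt from its 5′ end, with summits as black bars. MUC5B carries 6 and 8 peaks along 10893 nt, and in IRS1 all 3 peaks of each list face each other, whereas in ZFHX3 and ZHX3 some peaks have no counterpart.

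Groups of genes by function were then counted, using lists put together with earlier results of these data known, so the counts are descriptions. Not every listed gene has a long coding exon, and the counts are of those that do. They were, for example, 28 of 30 chromatin regulators, 11 of 19 signalling genes and 5 of 10 nuclear pore genes. Of all 2114 genes with a long coding exon, 295 (13.95%) had a pair, and of the 484 that also had a peak elsewhere in both lists, 38.2% did. Elsewhere means another coding or 3′ UTR part of the transcript than the long exon in question. It can be another long exon of the same gene, so these shares are not free of the peaks counted. The listed genes also tend to have longer exons, with a median longest stretch of 1514 to 3941.5 nt by list against 1477.5 nt over all genes. Among chromatin regulators 13 of 28 genes (46.4%) had a pair, and 12 of the 22 with a peak elsewhere (54.5%). KMT2D, a histone methyltransferase, had 3 pairs with fold enrichments of 2.04 to 3.26, and KMT2C had 3 pairs in exons 36, 38 and 52 with 3.34 to 5.46. JMJD1C, of the Jumonji family, had pairs of 11.6 and 8.58 and of 6.41 and 5.31, and PHF3, a PHD finger protein, had 2 pairs with values of 4.71 to 12.1.

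Genes of splicing and RNA binding had a pair in 5 of 14, and in 3 of the 6 with a peak elsewhere. SRRM2, a scaffold of nuclear speckles, had 3 pairs in exon 11, of 6701 nt, with fold enrichments of 2.60 to 3.34. SCAF1 had 2 pairs, SON 1 pair of 4.15 and 4.31, ACIN1 1 of 6.34 and 5.58, and ZC3H13, a part of the m6A writer complex, 1 of 8.07 and 7.42. Cytoskeletal linkers had a pair in 7 of 18 and in 4 of the 8 with a peak elsewhere, among them PLEC, DST (5.31 and 11.3) and AHNAK2 (9.77 and 5.23), and AHNAK had 1 and 3 peaks and 1 pair of 2.37 and 2.98 in an exon of 17328 nt. Of signalling genes 4 of 11 had a pair, and 3 of the 8 with a peak elsewhere, including IRS2 (4.79 and 3.36) and NOTCH2 (4.38 and 4.44). Of nuclear pore genes 2 of 5 did, NUP214 and POM121, and 1 of the 4 with a peak elsewhere.

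In chromosome segregation and centrosome genes 3 of 12 had a pair, and 3 of the 6 with a peak elsewhere. NUMA1 had 2 pairs, of 2.72 and 2.82 and of 3.78 and 3.08, ASPM 1 of 6.13 and 4.37, and MKI67, which coats mitotic chromosomes, 1 of 2.24 and 3.49 in an exon of 6845 nt. Zinc finger factors outside the ZNF symbols had a pair in 5 of 25 and in 3 of the 7 with a peak elsewhere, among them HIVEP3, HIVEP2 and TRPS1. Of genome maintenance genes MDC1 was the only 1 of 12 with a pair, and 6 of them had a peak elsewhere. BRCA1 had a single peak in replicate 1 (fold enrichment 5.21, pileup 19 reads), and BRCA2 had none. The single APC peak, in replicate 1, had a fold enrichment of 6.81 and a pileup of 15 reads.

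Most long exons had no peak. Of 2263 long coding exons, with a median of 1473 nt, 505 had one in replicate 1, 494 in replicate 2 and 330 in both (14.6%). In the 546 long exons of genes with a peak elsewhere in both lists, a stand-in for expression, 51.5% and 53.1% had a peak and 37.2% had one in both. The stand-in can rest on peaks in another long exon of the same gene. It also needs IGF2BP3 peaks, so expressed genes without them are left out. By length, the last share was 26.9% below 1500 nt, 41.5% from 1500 to below 2000 nt, 53.0% from 2000 to below 3000 nt and 47.9% (interval 36.9 to 59.2) from 3000 nt upwards. A longer exon has more room for a whole peak. Per 10 kb, from the shortest to the longest class, there were 3.66, 4.10, 3.96 and 2.38 peaks in replicate 1. In replicate 2 there were 4.01, 4.23, 4.47 and 2.36. Over all 546 exons the density was 3.399 and 3.61 peaks per 10 kb. In long 3′ UTR parts of genes chosen the same way it was 2.28 and 1.77. This difference was not tested.

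Within the exon, peaks lay toward the 3′ end. In replicate 1, 368 of 618 peaks (59.5%, interval 55.6 to 63.3) were closer to the 3′ end of the coding stretch than to its 5′ end, and in replicate 2, 379 of 639 (59.3%, interval 55.5 to 63.1). Peaks in long 3′ UTR parts lay the other way, with 42.9% and 40.4% closer to the 3′ end (Fisher's exact test, adjusted p = 1.65e-13 and 2.08e-16). When the available positions were divided into 3 equal parts, 26.5% and 27.4% of peaks fell in the most 5′ part and 45.5% and 44.3% in the most 3′ part. In first, internal and last coding exons and in genes with all coding sequence in 1 exon, 54.4% to 64.4% of peaks were closer to the 3′ end in replicate 1 and 54.7% to 61.3% in replicate 2. Exons with the stop codon did not differ from others beyond the test (55.3% against 61.8%, and 57.1% against 60.5%, Fisher's exact test, adjusted p = 0.159 and 0.444).

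**Figure D4:**
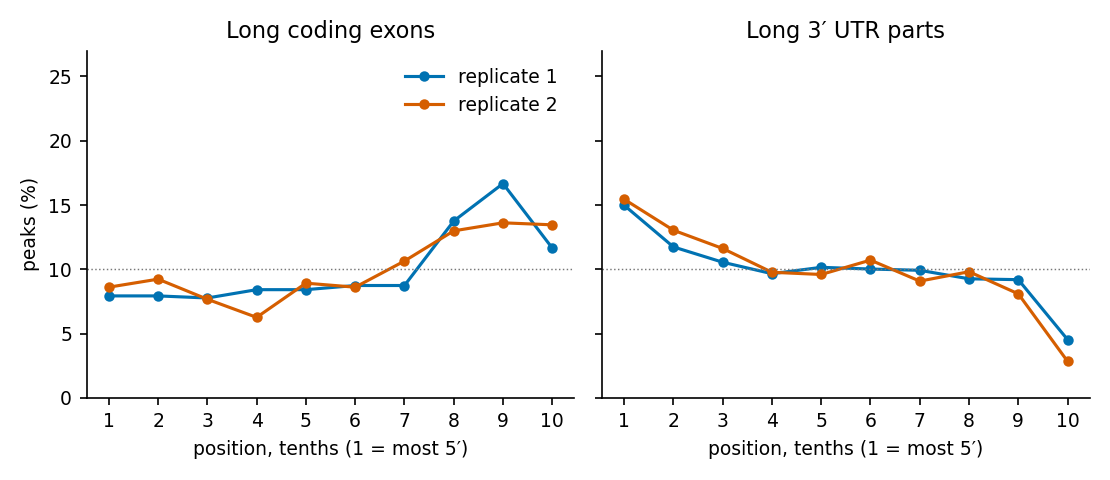
Share of peaks (%, vertical axis) in each of 10 equal parts of the positions available in the stretch, numbered from the 5′ end, for long coding exons and long 3′ UTR parts, in both replicates, with a dotted line at an even share. In long coding exons the share is highest over the last 3 parts, reaching 16.7% in replicate 1, whereas in 3′ UTR parts it is highest in the first part, at 14.98% and 15.4%.

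The summit itself lay near the middle of the peak, at a median of 0.49 and 0.51 of its width. It was in the upstream part of the peak for 55.1% of peaks in plus-strand genes and 48.5% in minus-strand genes in replicate 1, and for 52.3% and 44.4% in replicate 2, with no difference called (Fisher's exact test, adjusted p = 0.159 and 0.0774). The files give no strand for any peak. Of peaks inside long coding exons, 60.0% (371 of 618) and 59.6% (381 of 639) were in minus-strand genes, although these hold 48.7% of all long coding exons. In long 3′ UTR parts the shares were 66.6% and 65.02%. The part of strand in the counts by gene was not tested. The position within the exon was alike on both strands, with 58.7% and 60.1% closer to the 3′ end in plus-strand and minus-strand genes in replicate 1 and 58.9% and 59.6% in replicate 2.

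Last, the bases around the summits were compared with pieces of the same exons, of the same length, that no peak covered, on the gene strand only. The pieces of all these exons were pooled, 5028 in replicate 1 and 4803 in replicate 2, without matching within an exon. Longer exons therefore gave more pieces, and pieces of 1 exon are not independent. GGAC, the core of the m6A motif, was in 35.8% of summit windows and 33.5% of pieces in replicate 1, and in 36.3% and 37.1% in replicate 2, with no difference called (Fisher's exact test, adjusted p = 0.324 and 0.727). TGGAC, every match of which is also a GGAC match, was in 11.8% against 13.5% and 11.3% against 14.4% (Fisher's exact test, adjusted p = 0.317 and 0.0531). CACA was more frequent at summits, in 44.8% against 34.1% and 43.3% against 34.3% (Fisher's exact test, adjusted p = 6.67e-07 and 2.05e-05). AAAAA was less frequent, in 12.3% against 17.0% and 6.57% against 13.2% (Fisher's exact test, adjusted p = 0.00426 and 1.09e-06). That call was lost with 1 peak per gene, at a mean of −4.83 percentage points (higher adjusted p of the replicates, Fisher's exact test, 0.0574), and in stretches without other boundaries or genes, at −4.01 (0.624). The files hold no methylation calls, and a match is not a binding site.

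The windows also differed in base composition, with a mean GC content of 54.1% at summits against 50.4% in replicate 1 and 58.2% against 53.6% in replicate 2. CACA was more frequent at summits in each of 4 classes of GC content in both lists. Below 45% GC, for example, it was in 47.6% of summit windows against 34.4% of pieces in replicate 1 and 47.2% against 34.0% in replicate 2. AAAAA was lower at summits in 3 of the 4 classes in replicate 1, by little, and in 2 in replicate 2, where it was in 7.10% against 10.7% from 45 to 55% GC and in 1.27% against 4.57% from 55 to 65%. Below 45% GC it was in 30.6% against 33.1% and 34.7% against 34.2%. The m6A core words were lower at summits in most classes from 45% GC upwards. GGAC in replicate 2 was in 28.4% against 34.8%, 38.98% against 43.6% and 41.5% against 51.7% in these 3 classes, and in replicate 1 in 28.0% against 35.2%, 40.98% against 43.3% and 50.4% against 50.2%. Below 45% GC it was higher, at 27.2% against 21.1% and 31.9% against 22.2%. TGGAC was lower at summits in all 3 classes from 45% GC in both lists, for example 5.81% against 15.1% from 45 to 55% in replicate 2. The differences within GC classes were not tested. The word with the highest ratio of summits to pieces in the less enriched replicate was TCGC, with ratios of 1.78 and 1.85, followed by CACG with 1.66 and 1.68. CACA, with 1.31 and 1.26, was number 25 in this order, and 22 of the 24 words above it contain CG. With windows centred on peak midpoints instead of summits, the excess of CACA averaged 4.70 percentage points and was no longer called (higher adjusted p of the replicates, Fisher's exact test, 0.156). Of the 383 pairs, 122 had CACA in the windows of both replicates and 152 in neither.

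**Figure D5:**
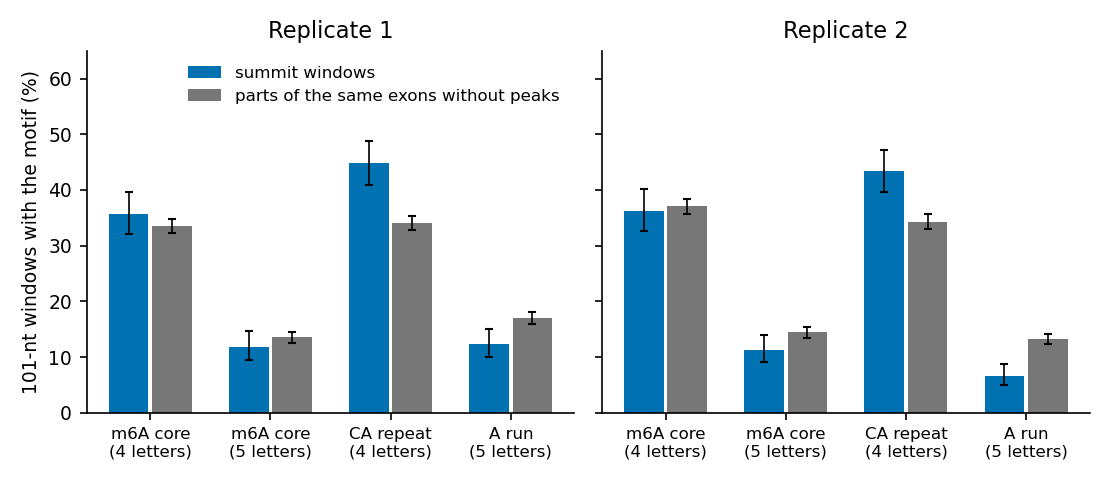
Share of windows (%, vertical axis) with each of 4 motifs, at summits and in pieces of the same exons without peaks, in both replicates, with Wilson 95% intervals. The CA repeat word is higher at summits, at 44.8% and 43.3%, the A run is lower, and no difference was called for either m6A core word before windows were split by GC content.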

How the data were processed

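IGF2BP3 LACE-seq was analysed from 2 samples, replicates 1 and 2 of OE-19 cells, a single group. The study's methods name Bowtie and Piranha, whereas the submitters' processing notes name fastp, HISAT2, MACS2 and hg38, and the deposited files follow the 10-column narrowPeak format of MACS. The authors called peaks per replicate. Fold enrichment is a ratio deposited by the authors, as are the p-value and q-value on the −log10 scale. The deposited score column was not used. Peak positions are in bp, given here 1-based.

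Coding stretches were read from GENCODE 44, and a peak in stretches of several genes went to the longest (7 and 4 peaks). Pileups were the whole numbers that give both fold and p-value under a Poisson distribution. Motif letters came from hg38. The window of 1 of the 10 strongest pairs is not reported here. Shares were compared within each replicate by Fisher's exact test, two-sided (scipy 1.17.1), with Benjamini-Hochberg adjustment over 22 tests. A difference was called when it had the same sign and an adjusted p below 0.05 in each replicate. The lists share many sites. Of peaks inside long coding exons, 364 of 618 and 367 of 639 were paired with one of the other list. The 2 replicates are therefore not independent checks of position or motifs. Peaks of 1 gene are not independent, so these tests describe these libraries. Peak finding was tested on placed intervals, and the tests on simulated counts. Those counts were independent, unlike peaks of 1 gene or overlaps counted from both lists.

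The members and gene lists were chosen with earlier results of these data known. Genes named were the 10 with the most pairs (13 genes tied at 3, and ties went by the summed fold enrichment of their pairs), the 10 strongest pairs, up to 4 per list, and MKI67, BRCA1, BRCA2, AHNAK, SON, SRRM2 and APC. Alternatives changed the overlap rule, q-value, exon length, copies, annotation, peaks per gene, windows, measure of strength and replicates used.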

Additional observations from a re-analysis of the deposited data

How the results depend on the processing

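Of 110 values recomputed over 14 results and 12 alternative settings, 86 kept their direction and their side of the threshold or stayed within 1.5 times the main count. Differences below are means over the replicates in percentage points, long coding exons or summits minus the other class. Against short internal exons, recurrence reversed to −4.83 with at least 50% overlap of each peak and to −9.22 with summits within 50 bp, and was 10.7 and no longer called in stretches without other boundaries or genes. Against 3′ UTR parts it was −0.937 with summits within 50 bp and ranged from −6.39 without replicate 1 to 15.5 without replicate 2. The top-quartile difference from 3′ UTR parts was −0.877 for stretches of 1500 nt or longer and −1.99 by −log10 q-value, and ranged from 0.917 without replicate 1 to 3.28 without replicate 2, and that from short exons was −1.31 by −log10 q-value. The GGAC difference, never called, was −0.366 with single-copy summits, −0.216 with 1 peak per gene and ranged from −0.753 without replicate 1 to 2.23 without replicate 2. AAAAA was no longer called in stretches without other boundaries or genes (−4.01) or with 1 peak per gene (−4.83), nor CACA at midpoints (4.70).

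Pairs shared by both lists fell from 383 to 150 with summits within 50 bp, 242 for 1500 nt, 185 in stretches without other boundaries or genes and 246 with 1 peak per gene. The mean number of peaks was 389 for 1500 nt and 313.5 in stretches without other boundaries or genes, and long coding exons with a peak in both lists were 193 and 166. That last count needs both replicates, so it has no value without one of them. The causes were not tested. Peaks with few reads at the summit recurred less often. No paired analysis was possible because there is only 1 group.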

Other observations

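The excess of minus-strand genes was not confined to long coding exons. Minus-strand genes made up 49.3% of the 19701 protein-coding genes, but 63.2% of the 546 long coding exons and 64.8% of the 2381 long 3′ UTR parts in genes with a peak elsewhere in both lists. Peaks inside long coding exons recurred in 72.5% of cases in minus-strand genes against 61.9% in plus-strand genes in replicate 1, and in 69.6% against 60.1% in replicate 2. Their median widths were 438 against 393 bp and 423 against 384.5 bp. These differences were not tested.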
